A study of Mus musculus with 6 samples.

Results

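Most of the amino acid synthesis, amino acid transport and tRNA synthetase genes associated with the transcription factor ATF4 were expressed at lower levels after 7 days in osteogenic medium than in confluent cells at day 0. This held in control cells and in both knockdown lines of C3H10T1/2, a mouse embryonic mesenchymal cell line, with 1 exception. Of the 9 transport genes in NFIB-depleted cells, 4 were lower and 5 higher at day 7, with a median log2 fold change of 0.007. Between lines, the ATF4-associated genes tended to be highest in MLL1-depleted cells at day 0 and highest in NFIB-depleted cells at day 7. The set holds 43 genes of the 55401 in the count table, namely 9 regulators of the stress response, 11 enzymes of amino acid synthesis and one-carbon metabolism, 9 amino acid transporters, 12 cytosolic aminoacyl-tRNA synthetases and 2 further targets. The set was selected on the day 7 against day 0 contrast of shControl, after Slc7a5 had been seen among its largest falls. That contrast is therefore given as a description only. Slc7a5 also fell in NFIB-depleted cells (log2 fold change −2.41) and in MLL1-depleted cells (−5.82). Members were chosen with earlier results of these data known, so tests in the knockdown lines may not be independent of the choice.

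The integrated stress response lowers general translation through phosphorylation of the initiation factor eIF2 and at the same time favours translation of Atf4 mRNA. ATF4 pairs with C/EBP and other bZIP proteins on C/EBP-ATF response elements, and its targets import and make amino acids, charge tRNAs and, under lasting stress, feed back on the response. In osteoblasts, ATF4 is known for its part in amino acid supply for collagen synthesis.

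The study compared 3 lines, carrying a control shRNA (shControl), a Nfib shRNA (shNFIB) or an Mll1 shRNA (shMLL1), to ask what NFIB, a DNA-binding factor, and MLL1, a histone H3K4 methyltransferase encoded by Kmt2a, contribute to osteogenic differentiation. Each line was sequenced untreated at day 0 and after 7 days in medium with dexamethasone (0.1 µM), β-glycerophosphate (20 mM) and ascorbic acid 2-phosphate (100 µg/ml). Every one of the 6 conditions has 1 library, and all 6 share the parental line and carry an shRNA. No condition therefore has a replicate, and each line stands for 1 shRNA in 1 established population of cells.

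The smallest library, shMLL1 at day 7, held 21608680 counts and the largest, shNFIB at day 0, held 34774066. Levels are given as CPM, the read count scaled to library size, after correction with TMM factors (trimmed mean of M values), and 3 counts correspond to between 0.0939 and 0.123 CPM. Kmt2a was at 30.9 and 34.8 CPM in the shMLL1 libraries against 66.3 to 94.0 in the other 4, and Nfib was at 35.3 and 8.15 CPM in the shNFIB libraries against 65.5 to 116 in the others. The mesenchymal markers Vim, Col1a1 and Pdgfra had at least 1731 counts in every library, whereas markers of other cell types had 19 counts or fewer in every library, apart from the neuronal tubulin Tubb3 with 289, 322 and 88 counts at day 0 and 6, 19 and 0 at day 7 in shControl, shNFIB and shMLL1. In the fit of the day effect described below, Tubb3 fell (log2 fold change −4.77, SE 0.84, edgeR adjusted p = 0.00602) and Pdgfra rose (2.33, SE 0.55, edgeR adjusted p = 0.0228). Pdgfra was the only 1 of 8 mesenchymal markers called, and the median log2 fold change of the 8 was −0.66. The part of these markers in the members' changes was not tested. Markers of proliferation fell together from day 0 to day 7, with 10 of 10 called lower in the same fit, a median log2 fold change of −3.45, and Mcm5 moving from 156 CPM in each line to between 9.10 and 14.9 CPM. The part of proliferation in the values below was not tested. In bulk RNA a lower level cannot tell fewer expressing cells from less RNA per cell.

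The members' promoters were searched for the letters of the C/EBP-ATF response element, TGATGNAA, on both strands of the window from 250 bases before to 50 bases after each RefSeq start (GRCm38.p6). Of the 43 members, 35 had a listed promoter and 14 of these held the motif (40%), against 1219 of 27025 genes (4.51%). The stricter form TGATGCAA, which is contained in TGATGNAA, was present in 11 of the 35 members (31.4%) and in 1.03% of genes. Holders were 3 stress regulators (Chac1, Nupr1, Trib3), 2 synthesis enzymes (Asns, Pycr1), 2 transporters (Slc1a4, Slc7a11), 5 synthetases (Aars, Gars, Iars, Tars, Yars), Fgf21 and Vldlr. The letters are a description of these windows and not evidence of binding. Since the members were picked as genes associated with ATF4, their share above that of all genes is no independent support for that link. For 8 members described below, 1 match each follows, 5′ to 3′ with the motif in capitals and 8 flanking bases on each side. They show the forms of the motif found near the start sites of genes of every role. Slc7a11 holds another match, on the minus strand at chr3:50443664-50443687, which is not printed. The Trib3 match lies after the start site and the other 7 before it.
Chac1, chr2:119351041-119351064, minus strand: ggcaggagTGATGCAAcggcaggg
Trib3, chr2:152344031-152344054, plus strand: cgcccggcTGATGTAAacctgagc
Asns, chr6:7693217-7693240, minus strand: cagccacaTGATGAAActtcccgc
Pycr1, chr11:120643836-120643859, minus strand: cctgtgtaTGATGCAAtgcacaag
Slc7a11, chr3:50443645-50443668, plus strand: ctgcatgaTGATGCAAattctcca
Gars, chr6:55037963-55037986, minus strand: ccggtgcaTGATGAAAtagcgcag
Tars, chr15:11399658-11399681, plus strand: taaccagcTGATGCAAcgggactc
Vldlr, chr19:27216812-27216835, minus strand: aggagcgcTGATGCAActattgct

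In shControl, 33 of the 42 members with at least 10 counts in a library were over 2-fold lower at day 7 (background 14.9% of 16786 genes) and 1, Slc7a3, was over 2-fold higher (background 23.0%), which only describes the contrast that chose them. Fgf21, a secreted metabolic hormone, had between 0 and 3 counts in all libraries and is given no fold. In the knockdown lines, 19 of 42 members were over 2-fold lower in shNFIB (background 13.9%), with a median log2 fold change of −0.91. In shMLL1, 37 of 42 were over 2-fold lower (background 19.8%), with a median of −2.51. The median over all genes was −0.03 in shNFIB and 0.04 in shMLL1, the latter becoming 0.25 without TMM factors. Over 2-fold higher at day 7 were Ppp1r15a in shNFIB (background 16.5%) and Slc7a3 in shMLL1 (background 25.8%). In 33 of 42 members both day 7 libraries of the knockdown lines lay below both of their day 0 libraries (25.4% of 18152 genes), and in 2, Slc1a5 and Slc38a2, they lay above (29.1% of genes). All 3 day 7 libraries lay below all 3 day 0 libraries in 32 members (20.0% of genes), a count that includes the shControl contrast.

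**Figure D1:**
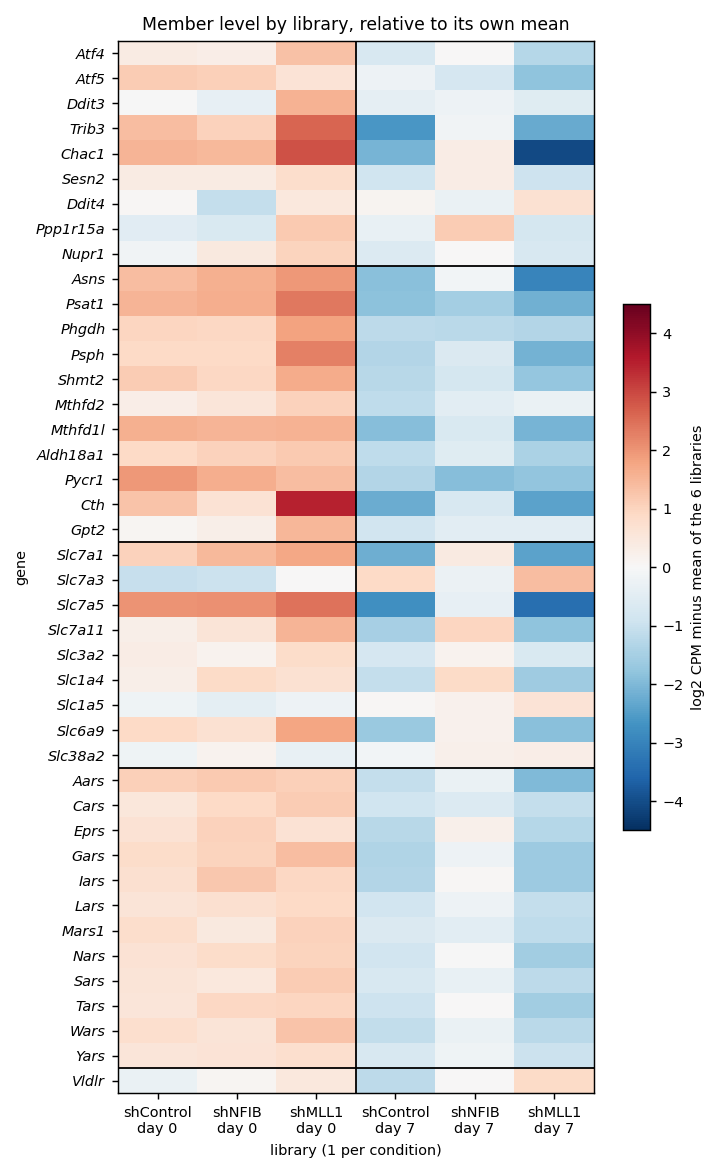
Heat map of 42 members (rows, ordered by role, Fgf21 left out) in the 6 libraries (columns), coloured by log2 CPM minus the mean of the 6 libraries. The 3 columns of day 0 are mostly red and those of day 7 mostly blue, the deepest red of most rows stands in shMLL1 at day 0, and shNFIB is the palest of the day 7 columns.

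The day effect was tested in the 2 knockdown lines alone, with line as a block and the spread shared over genes, by the quasi-likelihood test of edgeR, adjusted over 15867 genes by the Benjamini-Hochberg method. A gene was called when its adjusted p was under 0.05 and its fold over 2. Of the 42 members tested, 24 fell (background 7.30%) and 0 rose (background 7.42%). No member rose with DESeq2 either. An unadjusted p under 0.05 was found for 32 members, and for 4955 of all 15867 genes. The median log2 fold change of the members was −1.69, against −0.02 for all genes. The fit has 1 residual degree of freedom, and 14 members were called lower when libraries were scaled by their totals alone and 10 when the line was left out of the fit.

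The enzymes of amino acid synthesis and one-carbon metabolism fell as a group, with 11 of 11 called lower and a median log2 fold change of −2.94. Scaling by library totals alone left 8 of the 11 calls, without Cth, Gpt2 and Mthfd2, and leaving out the line left 8, without Asns, Gpt2 and Mthfd2. The serine branch starts from glycolysis with Phgdh, continues with Psat1 and ends with Psph. Psat1 stood at 691 CPM in shControl, 741 in shNFIB and 1236 in shMLL1 at day 0, and at 65.6, 82.5 and 53.4 CPM at day 7. The 3 day 7 libraries were close together, although shMLL1 started above the other lines. The fold change of Psat1 in the fit was −3.85 on the log2 scale (SE 0.54, edgeR adjusted p = 0.00191). Phgdh fell by 2.64 (SE 0.45, edgeR adjusted p = 0.00547), from 449.8, 443 and 802 CPM to 101, 99.3 and 91.6 CPM in the same order of lines. Psph fell by 2.94 (SE 0.65, edgeR adjusted p = 0.0176), and shNFIB kept the highest day 7 level, 24.3 CPM against 15.0 in shControl and 8.73 in shMLL1.

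Serine feeds the mitochondrial one-carbon enzymes. Shmt2, which moves a carbon from serine to folate, fell by 2.58 on the log2 scale (SE 0.49, edgeR adjusted p = 0.00923). Mthfd1l, which releases formate, fell by 2.94 (SE 0.43, edgeR adjusted p = 0.0024), from between 102 and 105 CPM in the 3 day 0 libraries to 9.22, 21.5 and 8.20 CPM in shControl, shNFIB and shMLL1. Mthfd2 had the smallest fall of the enzymes, 1.18 (SE 0.31, edgeR adjusted p = 0.0358). The lines therefore started from nearly one level of Mthfd1l, whereas most other enzymes were highest in shMLL1.

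Proline is made through Aldh18a1 and Pycr1, and both fell. Pycr1 (chr11:120635712-120643769, minus strand, GRCm38) had the smallest p of the members, with a fold change of −3.34 (SE 0.34, edgeR adjusted p = 0.000378). Its levels were 70.0, 55.5 and 46.8 CPM at day 0 and 7.25, 4.80 and 5.25 CPM at day 7 in shControl, shNFIB and shMLL1, so that shControl was the highest line at both days and the fold was alike in all 3 lines. Aldh18a1 fell by 2.08 (SE 0.39, edgeR adjusted p = 0.00885).

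Asparagine synthetase, Asns (chr6:7675169-7693254, minus strand, GRCm38), is a standard readout of ATF4 activity. It stood at 279, 325 and 417 CPM at day 0 and at 29.3, 98.7 and 13.8 CPM at day 7 in shControl, shNFIB and shMLL1. The lines were thus in one order at day 0 and in another at day 7, with shMLL1 moving from highest to lowest. Asns fell by 3.31 on the log2 scale in the fit (SE 0.76, edgeR adjusted p = 0.0203). Cth, which makes cysteine from cystathionine, fell by 3.56 (SE 0.99, edgeR adjusted p = 0.0421). Its day 0 level was 139 CPM in shMLL1 against 30.8 in shControl and 20.1 in shNFIB, and its day 7 levels were 2.69, 7.68 and 2.42 CPM in shControl, shNFIB and shMLL1. Cth was not called with DESeq2. Gpt2, the mitochondrial alanine aminotransferase, fell by 1.35 (SE 0.39, edgeR adjusted p = 0.046).

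**Figure D2:**
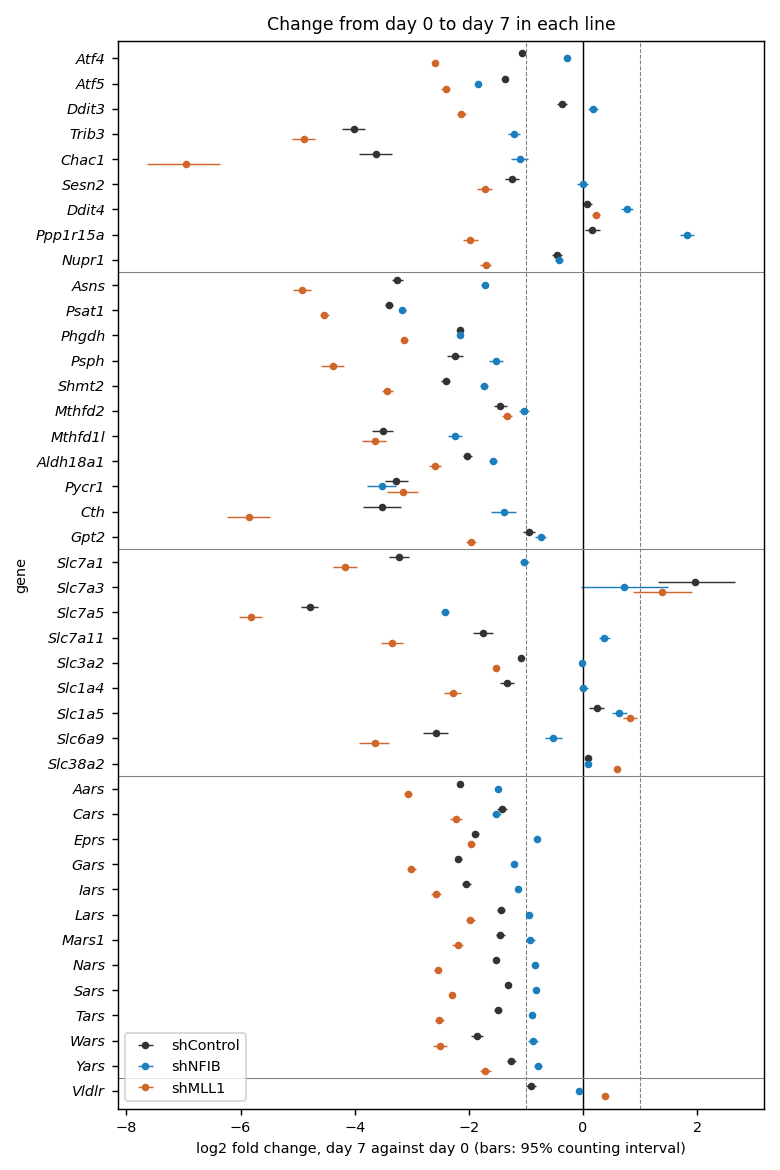
Log2 fold change from day 0 to day 7 (horizontal axis) of 42 members (vertical axis, by role), with 1 point per line and bars for the exact 95% counting interval, which covers counting error only. Dashed lines mark a 2-fold change. In most rows shMLL1 lies farthest to the left and shNFIB nearest to 0, while Pycr1 and Mthfd2 have all 3 lines close together and Ppp1r15a has shNFIB at 1.82 and shMLL1 at −1.97.

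The tRNA synthetases moved most evenly from gene to gene, though not from line to line. Of the 12 members, which attach amino acids to their tRNAs in the cytosol, 9 were called lower and the median log2 fold change was −1.69. The other 3, Eprs, Nars and Sars, had edgeR adjusted p-values of 0.063, 0.0571 and 0.0604 with log2 fold changes of −1.38, −1.69 and −1.56, and all 3 were called lower with DESeq2. With scaling by library totals alone 4 of the 12 were called lower, and with the line left out of the fit 1 was, Cars. By line, 4 of the 12 were over 2-fold lower in shNFIB (background 13.9%), with a median log2 fold change of −0.91. In shMLL1 12 of 12 were (background 19.8%), with a median of −2.40. In each of the 12 genes all day 7 libraries lay below all day 0 libraries. Aars, the alanyl enzyme, had the largest change, −2.27 (SE 0.51, edgeR adjusted p = 0.0189), from 599.5, 649 and 602 CPM in shControl, shNFIB and shMLL1 to 134, 231 and 72.2 CPM. Yars, the tyrosyl enzyme, had the smallest, −1.25 (SE 0.37, edgeR adjusted p = 0.0498), from 140.3, 148 and 163 CPM to 58.7, 85.5 and 49.7 CPM. For both genes the day 0 libraries were within a narrow range and the day 7 libraries were ordered shNFIB, shControl, shMLL1 from high to low. That order of the day 7 libraries was found in all 12 synthetases.

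Synthetases outside the set were counted in the same fit. Of the 8 other cytosolic synthetase genes 1 was called lower, Vars, the valyl enzyme, with a log2 fold change of −1.76 (SE 0.36, edgeR adjusted p = 0.0126), while 5 had an unadjusted p under 0.05 and the median was −0.90. Of the 17 mitochondrial synthetase genes 0 were called in either direction by edgeR, 1 had an unadjusted p under 0.05, and the median log2 fold change was −0.27. Over all genes in the fit, 4955 of 15867 had an unadjusted p under 0.05. In shMLL1, the members ranged from −3.06 to −1.71, the other cytosolic genes from −2.08 to −0.24 and the mitochondrial genes from −1.06 to 0.94. In shNFIB the ranges in the same order were −1.52 to −0.79, −1.45 to 0.08 and −0.76 to 0.66. Members and other cytosolic genes thus overlapped in both lines, and more so in shNFIB. No test between the families was made, since the 12 members were picked with values of these data known.

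**Figure D3:**
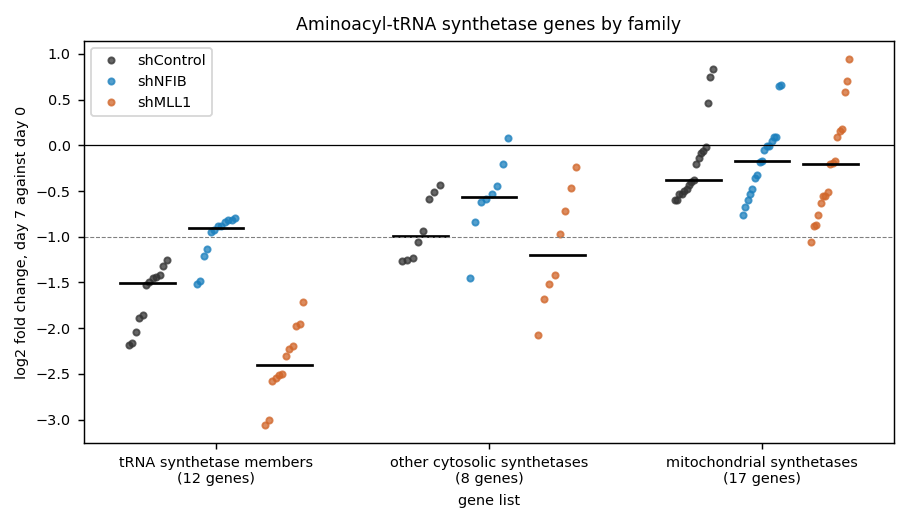
Log2 fold change from day 0 to day 7 (vertical axis) of synthetase genes in 3 lists (horizontal axis), with 1 point per gene, coloured by line, and a black bar at the median of each line. The 12 members lie at −0.79 or lower in every line, and the 17 mitochondrial genes scatter on both sides of 0.

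The transporters were divided. Of 9 members, 2 were called lower, Slc7a5 and Slc7a1, and the median log2 fold change was −1.13. Scaling by library totals alone left Slc7a5 as the 1 call, and leaving out the line left 0. Slc7a5 (chr8:121881150-121907694, minus strand, GRCm38), the light chain of the LAT1 exchanger for large neutral amino acids, stood at 351, 359 and 471 CPM at day 0 and at 12.7, 67.3 and 8.32 CPM at day 7 in shControl, shNFIB and shMLL1. It fell by 4.10 on the log2 scale in the 2 knockdown lines (SE 0.82, edgeR adjusted p = 0.011), the largest change of the tested members. Slc3a2, the heavy chain that pairs with Slc7a5 and Slc7a11, differed between the lines, at 347, 308 and 489 CPM at day 0 and 164, 304 and 169.6 CPM at day 7. Its level in shNFIB was thus almost the same at both days, and its log2 fold change in the fit was −0.77 (SE 0.48, edgeR adjusted p = 0.3).

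Slc7a1, the importer of arginine and lysine, was the other transporter called lower, with a fold change of −2.58 (SE 0.70, edgeR adjusted p = 0.0391). It stood at 93.2, 124 and 153 CPM at day 0 and 9.97, 61.0 and 8.52 CPM at day 7. Slc7a11, the cystine-glutamate exchanger, was at 39.5, 49.8 and 94.5 CPM at day 0 and at 11.7, 64.3 and 9.30 CPM at day 7. Of the 3 lines, only shNFIB had a higher Slc7a11 level at day 7 than at day 0, and the fold change in the fit was −1.47 (SE 0.82, edgeR adjusted p = 0.253). Slc1a4, which carries alanine, serine and cysteine, had 96.9 and 97.4 CPM at the 2 days in shNFIB, whereas it moved from 63.3 to 25.2 CPM in shControl and from 86.2 to 17.7 CPM in shMLL1. The glycine transporter Slc6a9 was at 37.7, 32.4 and 68.1 CPM at day 0 and 6.30, 22.6 and 5.41 CPM at day 7 (log2 fold change −2.06, SE 0.69, edgeR adjusted p = 0.0778).

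The remaining 3 transporters had higher values at day 7. Slc38a2, a carrier of small neutral amino acids, stood at 423, 542 and 392 CPM at day 0 and at 448, 572 and 595 CPM at day 7 in shControl, shNFIB and shMLL1, with a log2 fold change of 0.34 in the fit (SE 0.42, edgeR adjusted p = 0.611). Slc1a5, which carries glutamine, was between 25.3 and 29.9 CPM at day 0 and at 35.2, 39.3 and 51.9 CPM at day 7 (log2 fold change 0.73, SE 0.30, edgeR adjusted p = 0.139). Slc7a3, a cationic amino acid transporter of low level, had 25, 26 and 49 counts at day 0 and 93, 40 and 103 counts at day 7 (edgeR adjusted p = 0.226). Each line had its higher value at day 7 in these genes, and none passed the test.

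Of the 9 stress regulators, 2 were called lower, Atf5 and Trib3, and Trib3 was not called with scaling by library totals alone or with the line left out. Atf4 itself (chr15:80255184-80257541, plus strand, GRCm38) stood at 500.0 CPM in shControl, 471 in shNFIB and 956 in shMLL1 at day 0, and at 237, 389.8 and 159 CPM at day 7. Its day 7 libraries all lay below its day 0 libraries, with shMLL1 at the top of one day and the bottom of the other. Atf4 had a log2 fold change of −1.43 (SE 0.62) and was not called by edgeR (adjusted p = 0.15), whereas DESeq2 called it lower. Atf5, a related bZIP factor, was called lower at −2.12 (SE 0.39, edgeR adjusted p = 0.00709), from 409, 389.7 and 283 CPM to 159, 109 and 53.3 CPM, with shMLL1 the lowest line at both days. Trib3, a pseudokinase that restrains ATF4, was the other called regulator, at −3.03 (SE 0.83, edgeR adjusted p = 0.0391), from 106, 82.1 and 248 CPM to 6.56, 35.7 and 8.36 CPM.

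Among the other regulators, Chac1, which degrades glutathione, was at 44.1, 41.4 and 112 CPM at day 0 and 3.54, 19.1 and 0.902 CPM at day 7 in shControl, shNFIB and shMLL1. The last value rests on 22 counts, and the fold change in the fit was −3.79 with an SE of 1.30 (edgeR adjusted p = 0.0824). Ddit3, which encodes CHOP, was at 87.1, 67.8 and 263 CPM at day 0 and between 60.0 and 76.2 CPM in the 3 day 7 libraries, so the lines differed at day 0 and came close at day 7 (edgeR adjusted p = 0.25). Sesn2, an inhibitor of mTORC1 signalling, had 61.0 and 60.7 CPM in shNFIB and was lower at day 7 in the other lines, from 60.9 to 25.7 CPM in shControl and from 81.6 to 24.7 CPM in shMLL1. Nupr1, a stress-inducible chromatin protein, was lower at day 7 in each line, from 74.2, 113 and 164 CPM to 54.0, 84.2 and 50.2 CPM (edgeR adjusted p = 0.104). Ddit4, another mTORC1 inhibitor, went the other way with 74.9, 34.2 and 99.3 CPM at day 0 and 78.4, 58.2 and 116 CPM at day 7 (edgeR adjusted p = 0.32).

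Ppp1r15a (chr7:45522916-45526268, minus strand, GRCm38) encodes GADD34, which directs a phosphatase to eIF2 and so reverses the stress response. It was at 26.7, 23.8 and 86.4 CPM at day 0 and 29.9, 83.6 and 22.0 CPM at day 7 in shControl, shNFIB and shMLL1. The 2 knockdown lines thus exchanged places while shControl kept its level, and Ppp1r15a was the only member over 2-fold higher in one line and over 2-fold lower in another. Its fold change in the fit was −0.08 (SE 0.84, edgeR adjusted p = 0.96). Atf3, an ATF4 target outside the set, was likewise higher at day 7 in shNFIB and lower in shMLL1, at 10.0, 4.28 and 60.3 CPM at day 0 and 2.33, 14.9 and 2.70 CPM at day 7.

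Vldlr, a lipoprotein receptor also induced by ATF4, was lower at day 7 in shControl and higher in shMLL1. It was at 104, 137 and 178 CPM at day 0 and 55.7, 130.4 and 232 CPM at day 7 in shControl, shNFIB and shMLL1. The lines had the same order at both days, and the fold change in the day fit was 0.16 (SE 0.35, edgeR adjusted p = 0.788).

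**Figure D4:**
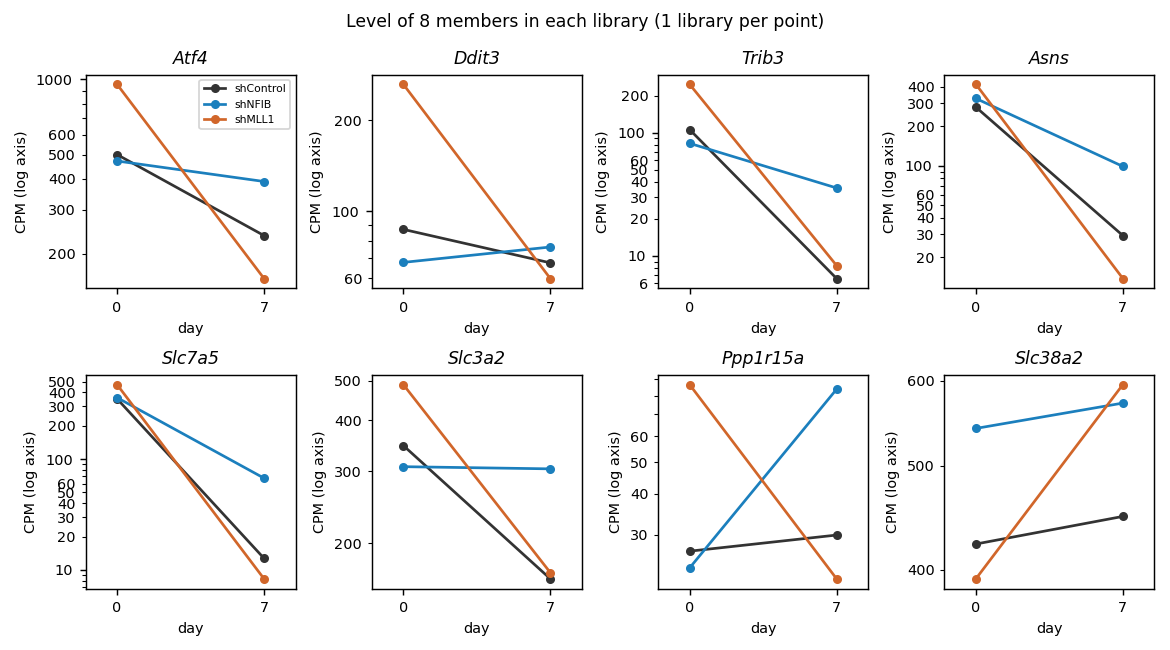
Level of 8 members in CPM (vertical log axis, scaled for each gene) at day 0 and day 7 (horizontal axis) in shControl, shNFIB and shMLL1, with 1 library per point. Lines join the 2 days of a line of cells. In Atf4, Ddit3, Trib3, Asns, Slc7a5 and Slc3a2 shMLL1 is highest at day 0 and shNFIB is highest at day 7, Ppp1r15a crosses, and Slc38a2 is higher at day 7 in every line.

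The comparison of lines at one day has 1 library a side and no test. At day 0, shNFIB was close to shControl over the set, with 1 of 42 members over 2-fold lower (Ddit4, background 6.32%), 0 higher (background 7.26%) and a median log2 fold change of 0.05. In shMLL1 at day 0, 10 members were over 2-fold higher than in shControl (background 11.0%) and 0 lower (background 9.35%), and the median was 0.53 against −0.04 for all genes. The 10 were Cth, Ppp1r15a, Ddit3, Gpt2, Psph, Chac1, Slc7a11, Trib3, Nupr1 and Slc7a3, of which 5 are stress regulators and none is a synthetase. With an exact test at an assumed biological coefficient of variation of 0.2, 4 of the 10 passed. The assumed value is below those estimated in the fits, 0.326 for the day effect and 0.280 for the line effects over both days. The largest was Cth with a log2 fold change of 2.18, and Ddit3 differed by 1.59. The 12 synthetases differed by between 0.01 and 0.63 there. shMLL1 was the highest of the 3 day 0 libraries in 33 of 42 members (35.7% of genes).

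At day 7 the set was higher in shNFIB than in shControl. Over 2-fold higher were 16 members (background 8.07%) and over 2-fold lower was 1, Slc7a3 (background 13.2%), with a median log2 fold change of 0.75 against −0.01 for all genes. The largest differences were those of Slc7a1 at 2.61, Slc7a11 at 2.46, Trib3 at 2.44, Chac1 at 2.43 and Slc7a5 at 2.40. Among the transporters 5 of 9 were over 2-fold higher, and the 11 enzymes differed by between −0.59 and 1.75 with 3 over 2-fold higher. With an exact test at the same assumed biological coefficient of variation of 0.2, below the fitted values, 10 of the 16 passed. shNFIB was the highest of the day 7 libraries in 33 of 42 members (37.1% of genes), including 12 of 12 synthetases.

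In shMLL1 at day 7, 3 members were over 2-fold lower than in shControl (Chac1, Atf5 and Asns, background 6.95%) and 1 was higher (Vldlr at 2.06, background 8.59%), with a median of −0.23. shMLL1 was the lowest of the day 7 libraries in 32 members (32.7% of genes), again with 12 of 12 synthetases. These comparisons share the shControl libraries with each other and with the contrast that chose the set. The 2 knockdown lines share no library, and set against each other, in a comparison added after the values had been seen, shMLL1 had 10 members over 2-fold higher (background 12.9%) and 0 lower (background 12.8%) at day 0, with a median of 0.45 against −0.13 for all genes. At day 7 it had 21 lower (background 9.32%) and 1 higher (background 14.8%), with a median of −0.99 against 0.00 for all genes. The shMLL1 day 7 library is the shallowest, and without TMM factors the last median was −0.78 while that of all genes was 0.22.

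**Figure D5:**
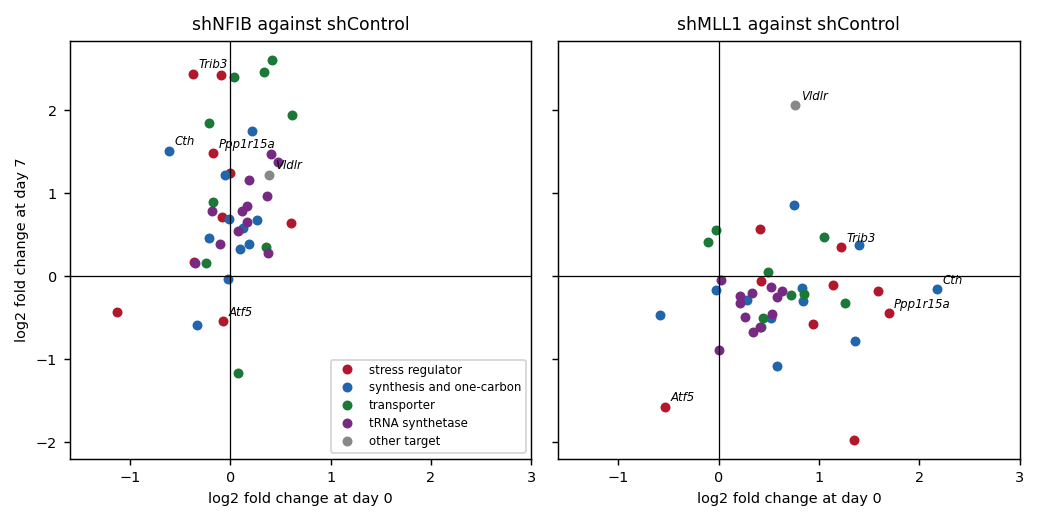
Log2 fold change against shControl at day 0 (horizontal axis) and at day 7 (vertical axis) for 42 members, coloured by role, in shNFIB (left) and shMLL1 (right). The shNFIB points lie near 0 at day 0 and mostly above 0 at day 7, with 16 members over 2-fold higher, whereas the shMLL1 points lie mostly to the right of 0 at day 0 and mostly below 0 at day 7.

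Fitted over both days, with day as a covariate and all 6 libraries, 0 of 42 members were called in shNFIB against shControl (background 0.408%) and 0 in shMLL1 (background 0.0300%) by edgeR. Unadjusted p-values were under 0.05 for 5 members in shNFIB and 4 in shMLL1, and DESeq2 called 0 and 1. Over all 16660 genes they were under 0.05 for 2072 in shNFIB and 1542 in shMLL1, shares close to those of the members. In this fit a difference between lines that changes with the day counts as spread. The smallest p among the members was that of Vldlr in shMLL1, with a log2 fold change of 1.43 (SE 0.34, edgeR adjusted p = 0.209). In shNFIB, Slc7a1 had 1.73 (SE 0.68, edgeR adjusted p = 0.373) and Slc1a4 had 1.38 (SE 0.50, edgeR adjusted p = 0.341). Whether the change over time differs between lines could not be tested with 1 library per condition.

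The day changes of the 42 members had a Pearson correlation of 0.89 between shControl and shMLL1, 0.76 between shControl and shNFIB and 0.60 between shNFIB and shMLL1. Over 15358 genes the 3 values were 0.77, 0.77 and 0.71. Genes within a library share its depth and are not independent. Members were not alike in level either. Per kilobase of exon, shControl at day 0 had its highest member levels in Atf4 with 212 CPM per kb, Atf5 with 205, Phgdh with 181 and Psat1 with 162, and its lowest in Slc7a11 with 2.84, Slc7a3 with 0.21 and Fgf21 with 0.10.

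Genes of the same pathway outside the set were counted in the day fit, in which 7.30% of all genes were called lower and 7.42% higher. Of 12 other ATF4 program genes 10 were tested and 5 were called lower, among them Herpud1, an ER quality control gene, with a log2 fold change of −1.46 (SE 0.32, edgeR adjusted p = 0.0161) and the ATF4 partner Cebpb with −1.32 (SE 0.36, edgeR adjusted p = 0.0401). The 2 lines differed in this list. In shMLL1 11 of 12 were over 2-fold lower at day 7 (background 19.8%). In shNFIB 10 had enough counts, with 2 over 2-fold lower (background 13.9%) and 3 over 2-fold higher (background 16.5%). Adm2 had 26, 9 and 42 counts at day 0 in shControl, shNFIB and shMLL1 and 0 in every library at day 7. Of the 15 genes for eIF2 and its kinases, 0 were called by edgeR and 6 had an unadjusted p under 0.05. For all genes the latter count was 4955 of 15867. The 15 genes had a median log2 fold change of −0.52 in the fit, against −0.02 for all genes. Over 2-fold lower at day 7 were 7 of the 15 in shMLL1 (background 19.8%) and 0 in shNFIB (background 13.9%). Eif2ak4, the kinase GCN2 that senses uncharged tRNA, was at 29.7, 30.1 and 34.3 CPM at day 0 and at 50.0, 53.2 and 49.9 CPM at day 7 in shControl, shNFIB and shMLL1 (log2 fold change 0.68, edgeR adjusted p = 0.171). Eif2ak3, the ER stress kinase PERK, was at 22.4, 32.7 and 13.9 CPM at day 0 and at 21.6, 25.8 and 27.5 CPM at day 7 (edgeR adjusted p = 0.599). Of 14 ER chaperone genes of the unfolded protein response 1 was called lower, Edem1, a share close to that of all genes. The 14 had a median log2 fold change of −0.50, against −0.02 for all genes. Of these, 5 were over 2-fold lower in shMLL1 (background 19.8%) and 1 in shNFIB (background 13.9%).

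Other amino acid genes moved in both directions. Of 23 tested enzymes of amino acid and one-carbon metabolism outside the set, 6 were called lower and 4 higher. Glul, glutamine synthetase, rose from 49.5, 106 and 22.8 CPM to 399, 1579 and 426 CPM in shControl, shNFIB and shMLL1 (log2 fold change 4.06, SE 0.47, edgeR adjusted p = 0.000637). Prodh, which begins proline breakdown, rose by 3.42 on the log2 scale (SE 0.69, edgeR adjusted p = 0.0115), whereas Tyms, which makes thymidylate, fell by 2.65 (SE 0.34, edgeR adjusted p = 0.00106). Of 14 tested transporters outside the set 2 were called lower, Slc1a3 and Slc38a1, and 1 higher, the neutral amino acid carrier Slc43a2 with 3.58 (SE 0.34, edgeR adjusted p = 0.000287). Among 14 tested genes of amino acid sensing by mTORC1, 1 rose, Sesn1, with 2.45 (SE 0.54, edgeR adjusted p = 0.0164), which as a share is again close to that of all genes.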

How the data were processed

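Bulk RNA of 6 libraries was sequenced after preparation with a TruSeq kit. According to the study's methods and the submitters' processing notes, the authors used Trimmomatic 0.39 for trimming, HISAT2 2.2.1 for alignment (genome GRCm38, mm10) and SAMtools 1.12 to keep well-mapped reads, removed duplicates, and deposited raw counts per Ensembl gene from HTSeq 0.11.1. The annotation release and the strand setting are not given in the sources used here, so that reads of overlapping genes (such as Ddit3 with Mars1, and Psph with Cct6a) cannot be told apart with certainty. Symbols and positions came from GENCODE on GRCm38, and all 43 members matched. Another gene with the symbol Ddit3 overlaps the member on the same strand. The gene with the longer exons was used, and the limit on overlapping genes holds for it too.

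Members, lists and named genes were chosen with earlier results of these data known. All 43 members may be named. Of the other lists, genes named were those past 2-fold in the same direction in both knockdown lines, at most the 4 largest per list, with Atf3, Eif2ak3 and Eif2ak4 added whatever their values. A gene that this rule names is not reported here. Vim, Col1a1, Tubb3, Nfib and Kmt2a were named for checks. The counts were tested with edgeR 4.0.16 (R 4.3.3): filterByExpr, TMM factors, quasi-likelihood test, Benjamini-Hochberg adjustment over all genes. The day fit used the 4 knockdown libraries with line as a block, since both days of a line come from the same cells (correlation of deviations between the days 0.255 to 0.434). Single pairs used log2 fold changes with a prior count of 0.125, at least 10 counts in a library, and exact Clopper-Pearson 95% intervals, which cover counting error only. Alternatives were DESeq2 1.42.0, other scaling, filters, prior counts, thinning and left-out lines. The fits were tested on simulated data. P-values measure the spread between these libraries, which stand for lines and not for repeat cultures.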

Additional observations from a re-analysis of the deposited data

Results flagged for a closer look

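Ppp1r15a was the 1 member whose change from day 0 to day 7 passed 2-fold in opposite directions in 2 lines. Its log2 fold change was 1.82 in shNFIB and −1.97 in shMLL1, from 23.8 to 83.6 CPM and from 86.4 to 22.0 CPM. The difference between the lines was not tested, since each condition has 1 library.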

How the results depend on the processing

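The count of members called lower in the day fit was 24. It was 14 with scaling by library totals alone and 10 without the line as a block, and the cause was not tested. With all 3 lines 1 member was called higher, Slc7a3, and leaving out shNFIB or shMLL1 from that fit gave between 27 and 36 called lower and between 0 and 1 higher. Atf4 was called lower with DESeq2, without the filter on low counts and in the 3-line fit without shNFIB. In the fits over both days, omitting the filter on low counts gave 3 members higher in shNFIB and 1 in shMLL1, and DESeq2 gave 1 higher in shMLL1. For single pairs, an exact test assumed a biological coefficient of variation of 0.2, below the 0.326 and 0.280 estimated in the fits. It left 4 of the 10 members higher in shMLL1 at day 0 and 10 of the 16 higher in shNFIB at day 7. The same test left 0 lower in shNFIB against shControl at day 0 and at day 7. For day 7 against day 0 within shMLL1 it left 0 higher. A minimum of 1 count gave 2 higher over the days in each knockdown line, 2 lower in shNFIB and 1 lower in shMLL1 at day 0, and a minimum of 100 counts, chosen after seeing the data, gave 0 for the counts that rest on Slc7a3 in shControl and in shNFIB against shControl at day 7. Scaling by totals gave 2 members higher over the days in shMLL1, and for shMLL1 against shNFIB at day 7 it gave 3 higher, while DESeq2 size factors and thinned counts gave 2 each. No called value changed direction under these settings. With 1 library per condition, depth and conditions cannot be told apart, and genes of few counts such as Slc7a3 and Fgf21 are limited by counting error.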
